A study of Mus musculus with 12 samples.

Results

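Langerhans cells are the dendritic cells that live in the epidermis, and dendritic cells of other kinds lie in the dermis beneath. The 8 genes described here were chosen by name, with earlier results of these data known. Those read as identity genes were Cd207, Epcam, Itgax and Flt3, and those read as maturation genes were Ccr7, Cd80, Cd83 and Cd86. They are 8 of 36978 names on the array and had 18 of its 56370 probes, of which 14 were bright enough on at least 2 arrays to be tested, with at least 1 tested probe for each gene.

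The RNA came from whole ear skin of C57BL/6J mice, either untreated at 0 h or 4 h after a single application to both ears of 62.5 mg of a cream holding 5% imiquimod (IMQ), which is used to raise a psoriasis-like dermatitis. IMQ is a ligand of TLR7, a receptor for RNA in endosomes; TLR9 is the related receptor for DNA, and keratinocytes use the scaffold CARD14 to activate NF-kB. Wild type mice (WT) were studied beside mice lacking Card14 (Card14-/-), either Toll-like receptor (Tlr7-/-, Tlr9-/-) or both (Tlr7-/-Tlr9-/-), and each of these 5 genotypes had 1 untreated array. IMQ-treated skin of WT, Tlr7-/- and Tlr9-/- mice was hybridized once and that of Tlr7-/-Tlr9-/- and Card14-/- mice on 2 arrays each, 12 arrays in all. All IMQ arrays of Tlr7-/-Tlr9-/- and Card14-/- lay on a second slide, scanned separately. Each RNA was a pool of 6 to 8 mice, so animals within a pool cannot be seen. Nothing in the labels says that the repeat arrays hold separate pools, and p-values that rest on them measure only the spread between arrays. Ages are not given in the sources used here, and no group received cream without IMQ, so the cream and the drug cannot be told apart.

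In skin, Langerhans cells take up antigen between keratinocytes and carry it along lymph vessels to the draining lymph node. On the way dendritic cells mature: they lose their hold on the epithelium, gain a receptor for lymph node chemokines, and put costimulatory proteins on their surface that T cells need to respond. Identity genes mark which cell is present, and maturation genes mark its state, though none of the maturation genes is found in dendritic cells alone, since B cells, T cells and macrophages can also express them. In RNA of whole skin, more cells of a type and more RNA per cell cannot be told apart.

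All values are log2 of the processed signal after quantile normalization over the 12 arrays, and a response is the IMQ level minus the untreated level of one genotype. Between 60.1% and 65.7% of spots were well above background, and 0 were saturated. The IMQ arrays were dimmer: the 75th percentile of the signal was 1070 to 1236 on untreated arrays and 527 to 779 on IMQ arrays, a mean change of -0.90 on the log2 scale. Every response is therefore relative to the other probes of the same array. The arrays of Tlr7-deficient mice read 4.02 to 5.85 for Tlr7 against 7.36 to 8.12 in the others, and the Card14-/- arrays read 9.63 to 9.89 for Card14 against 10.83 to 11.65. For Tlr9 the ranges were 10.95 to 11.33 and 11.05 to 11.39, so this probe does not separate the genotypes. Keratin, loricrin and collagen genes of skin were well above background on all 12 arrays.

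Over the 5 genotypes, 5 of the 8 genes rose after IMQ on their brightest probe and none fell. Cd83 rose most, 3.57-fold, followed by Cd86 with 2.34-fold, Cd207 with 2.30-fold, Ccr7 with 1.83-fold and Itgax with 1.31-fold. Cd80, Flt3 and Epcam did not pass on that probe. Counted by probe, 9 of 14 rose and 0 fell, where 10.6% of all 37125 probes tested rose and 13.6% fell (limma on the 10 group values, blocked by genotype, Benjamini-Hochberg adjusted p under 0.05). On 8 of the 14 probes every IMQ array lay above every untreated array, which held for 8.7% of all probes. The response was above 0 in all 5 genotypes on 9 of the 14 probes, against 16% of all probes. One of these probes, the dimmer one of Cd80, was well above background on IMQ arrays alone and so had to read higher there; over the other 13 probes the 3 counts were 8, 7 and 8.

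**Figure D1:**
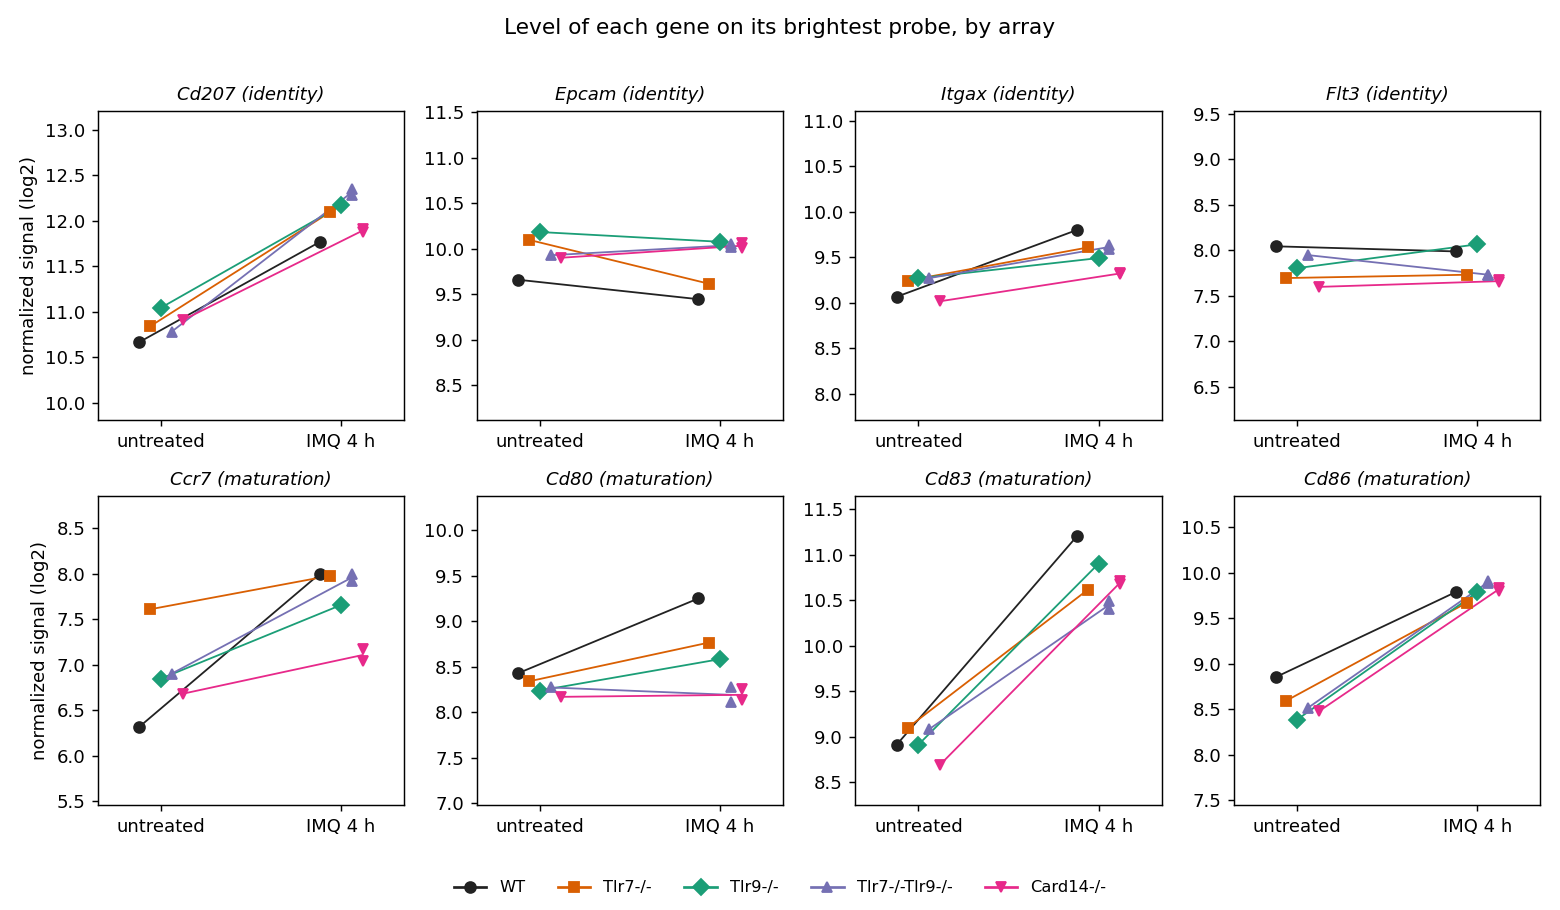
Normalized log2 signal of the 8 genes, each on its brightest probe, with 1 point per array, untreated on the left and 4 h after IMQ on the right; lines join the means of a genotype, colours and symbols mark the 5 genotypes, and all panels span an equal log2 range where the data allow. Cd207, Cd83, Cd86 and Itgax have no overlap between untreated and IMQ arrays, whereas Epcam, Flt3, Ccr7 and Cd80 do.

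Cd207 encodes langerin, the lectin that builds the Birbeck granules of Langerhans cells and that some dermal dendritic cells also carry. Its only probe lies on mm9 chromosome 6 from 83621442 to 83621501 on the minus strand, and the first 30 of its 60 bases are given to identify the stretch that was read.
Cd207 A_51_P110381: ccttggaggagcttgggttaaacgggtgag
Untreated levels were 10.66 in WT, 10.84 in Tlr7-/-, 11.04 in Tlr9-/-, 10.78 in Tlr7-/-Tlr9-/- and 10.90 in Card14-/- skin. After IMQ they were 11.76 in WT, 12.09 in Tlr7-/- and 12.17 in Tlr9-/- skin, 12.28 and 12.35 on the Tlr7-/-Tlr9-/- arrays, and 11.91 and 11.87 on the Card14-/- arrays. The lowest IMQ array, WT, was still above the highest untreated array, Tlr9-/-. The average response was 1.20 ± 0.10 (SE, 5 genotypes; limma, adjusted p = 0.0075), with a 95% interval of 0.95 to 1.45. By genotype the response ran from 0.99 in Card14-/- to 1.53 in Tlr7-/-Tlr9-/- mice, and its SD over genotypes was 0.21. The scanner signal before normalization gives the scale of this rise: it went from 2394 to 2100 in WT and from 2633 to 4386 and 4447 in Tlr7-/-Tlr9-/- skin, with a mean log2 change of 0.29 over genotypes. In WT skin the Cd207 signal was thus lower on the IMQ array as scanned, and higher only relative to the dimmer array.

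Of the other identity genes, Itgax rose and Epcam and Flt3 did not pass. Epcam encodes an adhesion protein that Langerhans cells share with epithelial cells, and it was read by a probe whose ends lie 829 bases apart on mm9 chromosome 17, from 88048972 to 88049800 on the plus strand; since the probe has 60 bases, it spans an exon junction. It is shown whole because it is the one probe of this gene.
Epcam A_52_P447944: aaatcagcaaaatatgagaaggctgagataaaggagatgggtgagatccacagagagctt
Untreated Epcam levels were 9.66 in WT, 10.10 in Tlr7-/-, 10.19 in Tlr9-/-, 9.93 in Tlr7-/-Tlr9-/- and 9.90 in Card14-/- skin. With IMQ the levels were 9.45, 9.62 and 10.08 in WT, Tlr7-/- and Tlr9-/- skin, 10.06 and 10.02 on the Tlr7-/-Tlr9-/- arrays, and 10.00 and 10.07 on the Card14-/- arrays. The 2 sets overlapped, and the response was below 0 in WT, Tlr7-/- and Tlr9-/- and above 0 in the other 2 genotypes. The average was -0.11 ± 0.11 (limma, adjusted p = 0.48), with a 95% interval of -0.39 to 0.17. This interval lies wholly below that of Cd207. With the 12 arrays kept separate and the slide as a further block, the Epcam value was -0.27 and passed the threshold (limma, adjusted p = 0.030). The second slide held only IMQ arrays of 2 genotypes, so this estimate comes from the 3 genotypes of slide 1 alone. Its p-value also draws on the spread between repeat arrays, which may share a pool. Slide 1 fitted by itself gave the same -0.27 and no call (adjusted p = 0.16).

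Itgax encodes CD11c, the integrin chain of most dendritic cells and of some macrophages. The probe used lies on mm9 chromosome 7 from 135294052 to 135294111 on the plus strand; the other 2 Itgax probes, A_52_P424887 and A_55_P2823539, were below background on all 12 arrays and were not tested.
Itgax A_51_P303424: tcccatctacttttgcaacgttggaattga
Untreated levels were 9.06 in WT, 9.24 in Tlr7-/-, 9.27 in Tlr9-/-, 9.27 in Tlr7-/-Tlr9-/- and 9.01 in Card14-/- skin. At 4 h they read 9.80, 9.61 and 9.49 in WT, Tlr7-/- and Tlr9-/- skin, 9.59 and 9.63 in Tlr7-/-Tlr9-/- skin and 9.32 on both Card14-/- arrays. No IMQ array fell among the untreated ones, although the Card14-/- arrays stood only just above them. On average the response was 0.39 ± 0.10 (limma, adjusted p = 0.037), with 0.73 in WT and between 0.22 and 0.36 in the other genotypes. The call did not outlast the loss of any 1 genotype: the adjusted p was 0.065 without WT, 0.096 without Tlr7-/-, 0.088 without Tlr9-/-, 0.077 without Tlr7-/-Tlr9-/- and 0.064 without Card14-/-. As scanned, the Itgax signal changed by -0.50 on the log2 scale, less than the arrays as a whole.

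Flt3 encodes the receptor tyrosine kinase whose ligand sustains conventional dendritic cells. On its brighter probe, A_66_P116412, mm9 chromosome 5 from 148142576 to 148142635 on the minus strand, untreated levels were 8.04 in WT, 7.69 in Tlr7-/-, 7.80 in Tlr9-/-, 7.94 in Tlr7-/-Tlr9-/- and 7.60 in Card14-/- skin. Treated skin gave 7.99, 7.73 and 8.06 in WT, Tlr7-/- and Tlr9-/- skin, 7.73 on both Tlr7-/-Tlr9-/- arrays, and 7.65 and 7.67 on the Card14-/- arrays. The untreated and IMQ arrays overlapped throughout. Averaged over genotypes it was 0.02 ± 0.09 (limma, adjusted p = 0.90; 95% interval -0.21 to 0.24), and on the second probe, A_66_P126155, it was 0.10 ± 0.11 (adjusted p = 0.48). The sign of the brighter probe turned, to -0.04, when Tlr9-/- was left out.

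Among the maturation genes, Cd83 moved most. CD83 is a membrane glycoprotein that appears on maturing dendritic cells, where it holds MHC class II and CD86 at the surface; activated B cells and T cells express it too. Its probe lies on mm9 chromosome 13 from 43898276 to 43898335 on the plus strand.
Cd83 A_51_P199135: agctattgcgccacgacaggaggaagttct
Untreated levels were 8.91 in WT, 9.10 in Tlr7-/-, 8.91 in Tlr9-/-, 9.08 in Tlr7-/-Tlr9-/- and 8.69 in Card14-/- skin. After the cream they stood at 11.20 in WT, 10.62 in Tlr7-/- and 10.90 in Tlr9-/- skin, 10.41 and 10.49 on the Tlr7-/-Tlr9-/- arrays, and 10.71 and 10.68 on the Card14-/- arrays. The groups were far apart, with the 2 Tlr7-/-Tlr9-/- arrays lowest and WT highest after IMQ. The average response was 1.83 ± 0.15 (limma, adjusted p = 0.0075; 95% interval 1.46 to 2.21). As scanned, before normalization, Cd83 changed by 0.93 on the log2 scale, the largest such change among the 8 brightest probes.

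Cd86 encodes a costimulatory ligand of CD28 and CTLA4 on T cells. It was read by 4 probes, all on mm9 chromosome 16 and the minus strand, and all 4 rose. Those that open at bases 2473 and 815 of the same RefSeq transcript are shown because they read distant stretches of it; the others were A_52_P145861, at base 1928, and A_55_P2715366, on another transcript.
Cd86 A_55_P1971951: ctggccagttaccaacatgttctgtacaga
Cd86 A_51_P174723: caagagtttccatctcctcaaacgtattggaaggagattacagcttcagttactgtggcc
On the brightest probe, from 36603961 to 36604020, untreated levels were 8.85 in WT, 8.59 in Tlr7-/-, 8.38 in Tlr9-/-, 8.51 in Tlr7-/-Tlr9-/- and 8.48 in Card14-/- skin. IMQ arrays read 9.79, 9.67 and 9.79 in WT, Tlr7-/- and Tlr9-/- skin, 9.89 and 9.90 on the Tlr7-/-Tlr9-/- arrays, and 9.80 and 9.84 on the Card14-/- arrays. After IMQ the genotypes thus lay close together, with an SD of 0.08 against 0.18 in untreated skin. On average the response was 1.23 ± 0.10 (limma, adjusted p = 0.0075; 95% interval 0.98 to 1.47). On the probe at base 815, from 36615381 to 36615440, it was 0.93 ± 0.15 (adjusted p = 0.015), and on that at base 1928 it was 1.13 ± 0.13 (adjusted p = 0.0095). The fourth probe was designed on an Ensembl transcript, lies upstream of the others from 36660860 to 36660919, and gave 1.09 ± 0.19 (adjusted p = 0.017). WT was the lowest of the genotypes on the probe at base 815, at 0.28, but not on that at base 1928, at 1.26. The calls at base 815 and of the Ensembl probe were lost without Tlr7-/- (adjusted p = 0.054 and 0.058) and without Tlr9-/- (0.064 and 0.062), and that of the Ensembl probe also without WT (0.052).

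**Figure D2:**
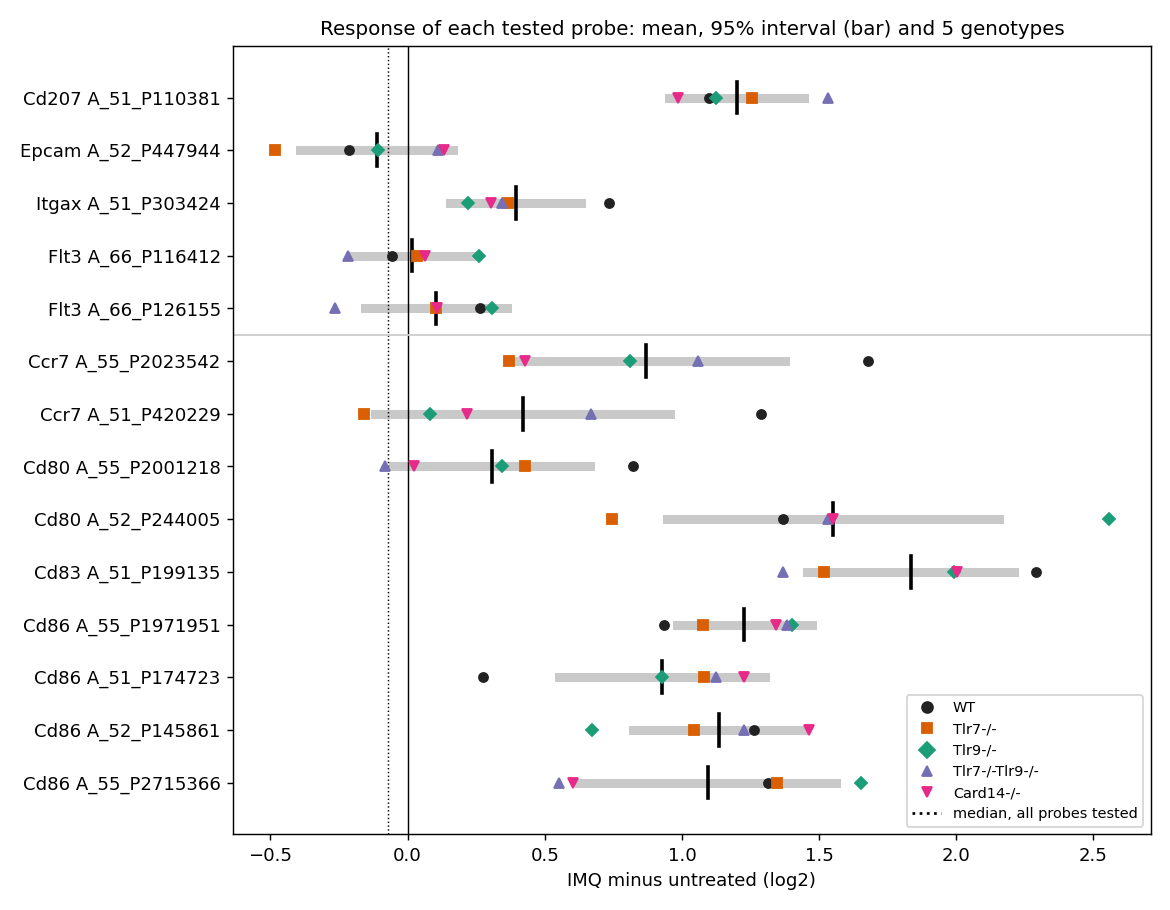
IMQ minus untreated on the log2 scale for each of the 14 tested probes, identity genes above the grey line and maturation genes below it. The black tick is the average response, the grey bar its 95% interval from limma, the coloured symbols are the 5 genotypes, and the dotted line is the median of all probes tested, -0.07. Cd83, Cd207 and the 4 Cd86 probes have intervals well above 0, while both Flt3 probes and the Epcam probe have intervals that include 0.

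Ccr7 encodes the chemokine receptor that leads dendritic cells, and also naive T cells, towards CCL19 and CCL21 in lymph vessels and lymph nodes. Its 2 probes lie near each other on mm9 chromosome 11 and the minus strand, from 99005551 to 99005610 and from 99005513 to 99005538; the files map only 26 bases of the second. Both are shown because their calls differ.
Ccr7 A_55_P2023542: cagccactgatacctttcctcatgttctgc
Ccr7 A_51_P420229: cttctagcttagagagatgtcccggagatt
On the brighter probe, untreated levels were 6.32 in WT, 7.61 in Tlr7-/-, 6.85 in Tlr9-/-, 6.90 in Tlr7-/-Tlr9-/- and 6.68 in Card14-/- skin. With the cream they were 8.00, 7.98 and 7.66 in WT, Tlr7-/- and Tlr9-/- skin, 8.00 and 7.92 on the Tlr7-/-Tlr9-/- arrays, and 7.17 and 7.05 on the Card14-/- arrays. The untreated Tlr7-/- array was above both Card14-/- arrays after IMQ, so the groups overlapped, but within each genotype the IMQ level was higher. Averaged over genotypes it was 0.87 ± 0.21 (limma, adjusted p = 0.033; 95% interval 0.36 to 1.37), with 1.68 in WT, 0.37 in Tlr7-/-, 0.81 in Tlr9-/-, 1.06 in Tlr7-/-Tlr9-/- and 0.43 in Card14-/- mice. The WT response was the highest and the untreated WT level the lowest of the 5. The adjusted p was 0.053 without WT, 0.059 without Tlr7-/-, 0.10 without Tlr9-/-, 0.080 without Tlr7-/-Tlr9-/- and 0.044 without Card14-/-. On the dimmer probe the average response was 0.42 ± 0.22 (adjusted p = 0.20). That probe was well above background on 8 arrays, and not on the untreated WT array or on any of the 3 Card14-/- arrays, so WT skin gives only a bound, at least 1.72-fold higher after IMQ.

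Cd80 encodes the other costimulatory ligand of CD28 and CTLA4. Of its 4 probes, 2 were bright enough to test, and they are shown because they disagree; the other 2, A_51_P418295 and A_66_P130432, were well above background on 1 array each. The brighter one lies on mm9 chromosome 16 from 38486772 to 38486831 and the dimmer one from 38474174 to 38474233, both on the plus strand.
Cd80 A_55_P2001218: aaaggagaggtgcctagtcttactgcaact
Cd80 A_52_P244005: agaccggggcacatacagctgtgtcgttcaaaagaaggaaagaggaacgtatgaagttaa
On the brighter probe, untreated levels were 8.43 in WT, 8.34 in Tlr7-/-, 8.24 in Tlr9-/-, 8.27 in Tlr7-/-Tlr9-/- and 8.17 in Card14-/- skin. After IMQ the values were 9.25, 8.77 and 8.59 in WT, Tlr7-/- and Tlr9-/- skin, 8.27 and 8.11 on the Tlr7-/-Tlr9-/- arrays, and 8.25 and 8.13 on the Card14-/- arrays. Only the 3 IMQ arrays on the same slide as the untreated ones stood above all of them. The average response was 0.31 ± 0.15 (limma, adjusted p = 0.17, 95% interval -0.05 to 0.67). With 12 separate arrays and the slide as a block it was 0.53 and passed (adjusted p = 0.0069). As for Epcam, that estimate comes from slide 1 alone, and its p-value draws on repeat arrays that may share a pool. Slide 1 fitted by itself gave the same 0.53 and no call (adjusted p = 0.058). The dimmer probe was well above background on none of the 5 untreated arrays and on 4 of the 7 IMQ arrays. Its mean levels were 2.99 and 4.54 (limma, adjusted p = 0.014). Set against the floor of the untreated arrays, the IMQ mean was 1.53-fold higher. That mean includes IMQ arrays below background, so 1.53-fold is not a lower limit, and with normexp the average response was 0.24 on the log2 scale. It passed the signal filter through its IMQ arrays alone, so its rise supports none of the counts of member probes. On this probe the 4 arrays were those of Tlr9-/-, both of Card14-/- and 1 of Tlr7-/-Tlr9-/-, whereas on the brighter probe Tlr7-/-Tlr9-/- and Card14-/- had responses of -0.08 and 0.02.

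**Figure D3:**
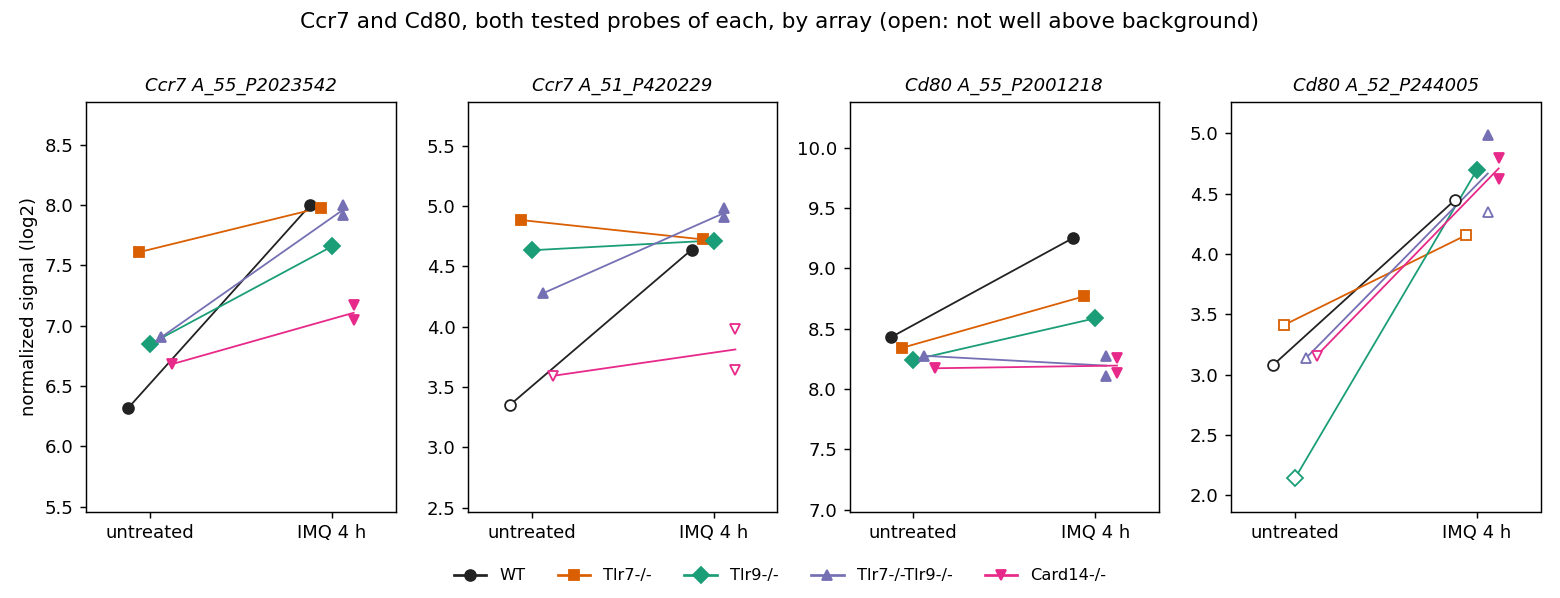
Normalized log2 signal on both tested probes of Ccr7 and of Cd80, with 1 point per array, untreated on the left and IMQ on the right; open symbols were not well above background, and lines join genotype means. On the brighter Ccr7 probe the Card14-/- arrays are lowest after IMQ, at 7.17 and 7.05, and on the dimmer Cd80 probe all 5 untreated symbols are open.

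Read as sets, on the brightest probe of each gene, the 4 identity genes had a median average response of 0.21 and the 4 maturation genes one of 1.05, where the median of all probes was -0.07. The maturation median was above the identity median in every genotype: 1.31 against 0.34 in WT, 0.75 against 0.20 in Tlr7-/-, 1.11 against 0.24 in Tlr9-/-, 1.21 against 0.23 in Tlr7-/-Tlr9-/- and 0.88 against 0.22 in Card14-/-. The sets were not cleanly apart, since Cd207 at 1.20 lay above Ccr7 and Cd80, and Cd80 at 0.31 lay below Itgax. With 4 genes in each set these medians are descriptions only.

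Because IMQ is a TLR7 ligand, the responses of the 2 genotypes that lack Tlr7 were compared with those of the other 3. No member probe passed (0 of 14), and neither did any of the 37125 probes (0%; limma on 5 responses, adjusted p under 0.05), while 1055 had an unadjusted p under 0.05. The Cd83 response was 1.52 and 1.37 in the 2 genotypes that lack Tlr7 and 2.29, 1.99 and 2.00 in the others. The difference was -0.65 ± 0.19 (95% interval -1.14 to -0.17; limma, adjusted p = 1.00). For Cd207 the responses were 1.26 and 1.53 without Tlr7 and ran from 0.99 to 1.12 with it. The difference was 0.32 ± 0.18 (95% interval -0.14 to 0.78). For Cd86 the difference was 0.00 ± 0.23 on the brightest probe (95% interval -0.59 to 0.59). Ccr7 had -0.26 ± 0.45, with an interval from -1.41 to 0.89, which allows differences as large as the response itself.

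In each genotype alone, with the spread taken from the repeat arrays and a size limit of 1 on the log2 scale, 6 of 14 member probes rose in WT (8.74% of all probes rose), 5 in Tlr7-/- (4.06%), 5 in Tlr9-/- (5.9%), 6 in Tlr7-/-Tlr9-/- (3.26%) and 4 in Card14-/- (2.54%); none fell. Over the 13 probes without the dimmer Cd80 probe the Tlr9-/- count was 4 and the other counts did not move. Cd83 was called in all 5 genotypes. Cd207 was called in 4, with 0.99 in Card14-/- just under the size limit. The brightest Cd86 probe was called in 4, with 0.94 in WT just under it. Ccr7 was called on its brighter probe in WT and Tlr7-/-Tlr9-/- only, and neither Itgax, Flt3, Epcam nor the brighter Cd80 probe was called in any. This fit has 2 residual degrees of freedom. Without any 1 of the 4 repeat arrays the counts fell to 0 in Tlr7-/-, Tlr7-/-Tlr9-/- and Card14-/-. Without either Card14-/- repeat array the Tlr9-/- count was 0 as well, and without either Tlr7-/-Tlr9-/- repeat array it was 4. The WT count stayed at 5 or 6.

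The Card14-/- response was set against the WT response. The brighter Ccr7 probe was the only member probe called, with a Card14-/- response lower than that of WT by 1.25 on the log2 scale (-1.25 ± 0.13; limma, adjusted p = 0.020), where 11.4% of all probes were called in either direction. Of this difference -0.89 lay between the IMQ arrays and 0.36 between the untreated arrays, where Card14-/- was the higher. On the dimmer Ccr7 probe the difference was -1.07 ± 0.26 (adjusted p = 0.065), with all Card14-/- arrays below background. The call on the brighter probe was lost without either Tlr7-/-Tlr9-/- repeat array (adjusted p = 0.063) and without either Card14-/- repeat array (0.082 and 0.083). It also fell under the size limit with normexp background correction (-0.81) and in the authors' deposited log2 values (-0.92). Brightness moved with this comparison: the 75th percentile changed by -1.23 in WT and by -0.50 in Card14-/-, and the IMQ arrays of the 2 genotypes lay on different slides, so slide and genotype cannot be told apart here.

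In the same comparison of Card14-/- with WT, 7 of the 14 member probes had an unadjusted p under 0.05 (limma), as did 45.9% of all probes. Under the size limit, the brighter Cd80 probe differed by -0.80 ± 0.16 (adjusted p = 0.049) and Itgax by -0.43 ± 0.07 (adjusted p = 0.037). Cd86 had no single direction over its probes. The difference was 0.41 ± 0.07 on the brightest probe (adjusted p = 0.040) and 0.95 ± 0.10 on that at base 815 (adjusted p = 0.020). It was 0.20 ± 0.09 on the remaining RefSeq probe (adjusted p = 0.18) and -0.71 ± 0.37 on the Ensembl probe (adjusted p = 0.24). On the brightest probe, Card14-/- minus WT was -0.38 between the untreated arrays and 0.03 between the IMQ arrays. On the probe at base 815 these values were -0.63 and 0.32. For Cd207 the difference was -0.11 ± 0.09 (adjusted p = 0.40; 95% interval -0.39 to 0.16). The Tlr9-/- response, set against the same WT arrays, gave no called member probe (0.388% of all probes were called); its Ccr7 value was -0.87 ± 0.14 (adjusted p = 0.12) and its Cd207 value 0.02 ± 0.10.

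A comparison within one slide was possible between the IMQ arrays of Card14-/- and Tlr7-/-Tlr9-/-, 2 of each. The brighter Ccr7 probe was lower in Card14-/- by 0.85 on the log2 scale (-0.85 ± 0.07; limma, adjusted p = 0.045), under the size limit of 1. Cd207 was at 11.91 and 11.87 against 12.28 and 12.35, a difference of -0.42 ± 0.05 (adjusted p = 0.069), and Cd83 differed by 0.24 ± 0.05 (adjusted p = 0.12). No member probe was called (0 of 14), against 1.06% of all probes; an unadjusted p under 0.05 was found for 6 of the 14 and for 25.1% of all probes.

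A list of 12 genes held ligands and receptors of the members and some related genes, not all of whose products bind a member. Of these 1 rose and 2 fell, with a median of -0.05, where 10.6% of all probes rose and 13.6% fell. CCL19 and CCL21 are the ligands of CCR7, and Ccl19 had an average response of -0.08 ± 0.16 and Ccl21a one of 0.31 ± 0.12, neither past the threshold (adjusted p = 0.72 and 0.11). Ackr4, a receptor that takes the same chemokines out of the tissue, fell by 0.48 (adjusted p = 0.026; -0.64 on another probe). For the costimulatory pair, Cd28 was at -0.15, and Ctla4 was well above background on only 2 arrays. Icosl, a related ligand of T cells, fell by 0.73 (adjusted p = 0.041), but was well above background on only 3 of the 7 IMQ arrays. Flt3l was at -0.03 on its brightest probe but at -0.72 and -0.45 on 2 others, the integrin partner Itgb2 at 0.14 and the claudins Cldn7 and Cldn1, which associate with EPCAM, at 0.14 and -0.07. These genes of FLT3, CD11c and EPCAM, like Cd28, did not pass on their brightest probes. Icam2, an adhesion molecule of endothelium, rose by 0.55 (adjusted p = 0.022).

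Other genes of dendritic identity gave 0 rises and 5 falls among 25 tested, with a median of -0.08. The largest falls were in Zbtb46, a transcription factor of conventional dendritic cells (-0.82, well above background on 3 of 7 IMQ arrays and at 0.08 on another probe), Ccr6, a receptor for CCL20 (-0.60), and Irf4, a transcription factor of migratory dendritic cells (-0.60, and -1.29 on another probe). Clec9a and Xcr1, markers of cross-presenting dendritic cells, were below background on all 12 arrays. Itgae, the CD103 chain found on some langerin-positive dermal cells, was at 0.53 (adjusted p = 0.051). Genes listed for Langerhans cell upkeep and anchoring gave 1 rise and 2 falls among 18, with a median of -0.08. They included Csf2rb, a cytokine receptor chain (0.69, other probes 0.27 to 0.97), Itgb8, an integrin that activates TGF-beta (-0.76, other probes -0.61 and 0.11), and Ahr (-0.65, but 0.16 on another probe). The Langerhans growth factor Il34 was at -0.08, with -0.62 on another probe, and the adhesion gene Cdh1 at -0.32, neither past the threshold on its brightest probe.

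Other genes of maturation and migration gave 8 rises and 4 falls among 26 tested, with a median of 0.21. The largest rises were in Ccl17, a chemokine for CCR4 on T cells (1.21, 2.31-fold, adjusted p = 0.012), Icam1 (1.09, but 0.14 on another probe) and Tbc1d4 (0.90, other probes -0.29 to 0.39). Relb, Traf1, Birc3, Cd274 and Marcksl1 rose by 0.28 to 0.68 on their brightest probes. Other probes stood at -0.05 and 0.05 for Relb, at -0.09 and 0.10 for Marcksl1 and at 0.14 to 0.97 for Birc3, and Traf1 and Cd274 had no other. The largest falls were in the cytokine Il15 (-0.72, other probes -0.99 and -0.08), the prostaglandin receptor Ptger4 (-0.63, and -0.46 on another probe) and Cacnb3 (-0.63). Cd40 at 0.09 and Fscn1, the actin bundler of mature dendritic cells, at 0.23 did not pass, and Ccl22, Il12b and Tnfsf4 were below background on all 12 arrays. Of 13 genes of the MHC class II pathway, 3 rose and 0 fell, with a median of 0.19. These were H2-Aa (0.64), H2-DMb1 (0.48) and H2-DMa (0.30), while Cd74 at 0.19 and H2-Ab1 at 0.19 did not pass.

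**Figure D4:**
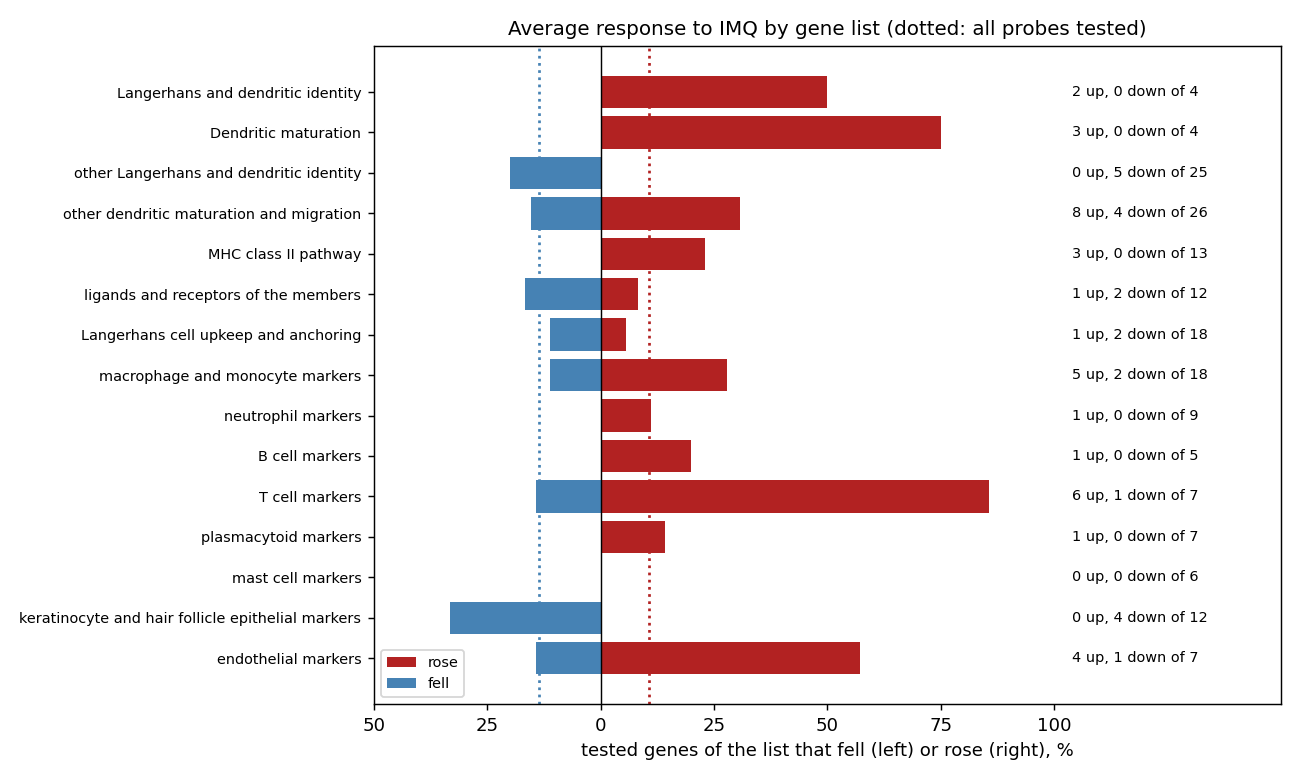
Share of the tested genes in each list that rose (red, right) or fell (blue, left) in the average response, read on the brightest probe of each gene, with the counts at the right; dotted lines mark the share of all probes tested, 10.6% for rises and 13.6% for falls. Other maturation genes had 8 rises among 26, other identity genes 0 among 25, and T cell markers 6 among 7.

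Markers of other cells were read as well, some of them cells that can express the maturation genes. Over all probes tested, 10.6% rose and 13.6% fell, and lists with 1 call or none cannot be set apart from these shares. The part of these cells in the member results was not tested. Of 7 T cell markers 6 rose, among them Cd2 (0.86), Cd3e (0.80) and Cd3d (0.76); the log2 of the list's summed signal was 12.33 to 12.65 untreated and 12.89 to 13.57 after IMQ. Of 5 B cell markers Ms4a1 rose (2.05), while Cd79b was at -0.26 and the list median was -0.21. Blk was below background on all 12 arrays. The summed signal was 8.08 to 8.20 untreated and 8.61 to 9.31 after IMQ, where Ms4a1 was the brightest of the 5. Of 18 macrophage and monocyte markers 5 rose and 2 fell, led by Lyve1 (1.01) and Cd14 (0.76) against Ccr2 (-0.97), and the summed signal overlapped, 16.75 to 17.30 and 16.83 to 17.39. Of 7 plasmacytoid markers Siglech rose (0.68). Among 9 neutrophil markers 1 rose and 0 fell. This was Retnlg, at least 3.37-fold higher after IMQ. It was well above background on 0 of 5 untreated and 7 of 7 IMQ arrays. Retnlg thus passed the signal filter through its IMQ arrays alone and had to read higher there. Of 6 mast cell markers 0 passed. Of 12 keratinocyte and hair follicle markers, which bear on Epcam, 0 rose and 4 fell, led by Lgr5 (-1.50, other probe -0.42), Lrig1 (-0.74) and Krt1 (-0.64). Endothelial markers had 4 rises and 1 fall among 7, with Cldn5 at 0.81, Esam at 0.70, Cdh5 at 0.55 and Tek at -0.39. The members' own summed signal was 11.66 to 12.01 untreated and 12.38 to 12.80 after IMQ for the identity genes. For the maturation genes it was at most 10.51 untreated and at least 11.50 after IMQ. Cd207 was the brightest of the 4 identity genes in every group and weighs most in their sum, while their median response was 0.21.

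The genes whose levels followed Cd207 and Ccr7 most closely over the 10 groups were looked up among 23450 named probes well above background on all arrays. For Cd207 they were Nifk (r = 0.991), Maff (0.989), Slc25a25 (0.984), Oxsr1 (0.983) and Havcr2 (0.982). For Ccr7 on its brighter probe they were Pars2 (0.951), Aatf (0.951), Pkp4 (0.946), Smarca5-ps (0.941) and Smox (0.940). The 10 points share arrays and normalization, and the treatment step makes up most of the Cd207 pattern, so these values are descriptions. None of the 10 genes is a member or on the lists of dendritic genes.

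RefSeq start-site windows of 300 bases, 250 before and 50 after the start (GRCm38.p6), were at hand for Flt3, Cd207, Itgax, Cd80 and Epcam. Ccr7, Cd83 and Cd86, which also rose, had no window and could not be searched, so matches cannot be set against responses. They were searched on both strands for 4 motifs chosen with the values known. The AP-1 motif TGACTCA was found in 2 of the 5, Cd207 and Itgax, and in 5.20% of 32851 promoters. The windows of these 2 genes are shown with the match in capitals and written along the gene. In Cd207 the match opens 7 bases before the start (chr6:83677808-83678107, minus strand). In Itgax it opens 56 bases before the start (chr7:128129300-128129599, plus strand) and reads in the other direction.
Cd207 promoter: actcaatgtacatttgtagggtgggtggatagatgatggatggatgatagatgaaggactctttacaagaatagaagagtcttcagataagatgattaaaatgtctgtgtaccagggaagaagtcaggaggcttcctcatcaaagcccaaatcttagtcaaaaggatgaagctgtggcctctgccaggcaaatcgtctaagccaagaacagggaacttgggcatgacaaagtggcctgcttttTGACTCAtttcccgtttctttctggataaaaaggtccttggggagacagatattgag
Itgax promoter: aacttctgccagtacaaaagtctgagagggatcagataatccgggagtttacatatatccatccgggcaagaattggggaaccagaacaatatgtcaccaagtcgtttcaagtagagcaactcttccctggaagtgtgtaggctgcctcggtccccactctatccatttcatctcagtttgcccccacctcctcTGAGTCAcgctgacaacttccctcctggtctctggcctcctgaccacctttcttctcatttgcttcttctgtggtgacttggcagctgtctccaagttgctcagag
The interferon-type motif GAAANNGAAA was in 0 of the 5 windows and in 3.44% of all promoters, and the PU.1 motif GAGGAAGT in 0 of the 5 and in 3.20%. The NF-kB motif GGGNNNNNCC was in 1 of the 5, Cd80, and in 50.8% of all. A match describes letters in a window, and no match says only that the letters are not in it.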

How the data were processed

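The 12 arrays of ear skin RNA fall into 10 groups, taken from the labels. The raw files hold spot intensity, per the file headers from Feature Extraction 10.7.3.1 (10.5.1.1 in the submitters' processing notes); the processed signal is background-corrected within each array. The authors also deposited a table of log2 values, made with limma, used only as an alternative.

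Processed signals were log2 transformed and then quantile normalized with limma 3.58.1 in R 4.3.3, reading files with Python 3.11.15 and pandas 2.3.3. Left out were 235 probes with outlier flags; 37125 probes passed the filter, which asks for 2 arrays with a signal well above background, and were tested, with Benjamini-Hochberg adjustment over all of them. The average response was fitted to the 10 group means, blocked by genotype (4 residual degrees of freedom). Tlr7 dependence was tested on 5 responses (3 degrees of freedom), and group contrasts on 12 arrays in 10 groups (2 degrees of freedom, single arrays being assumed to vary like the repeats), called at a difference of at least 1. p-values are two-sided. The fits were tested on simulated data. The median SD was 0.055 between repeat arrays and 0.29 between the 5 responses; the number of arrays limits the precision. The 2 numbered repeats of Tlr7-/-Tlr9-/- and Card14-/- were not taken as pairs, since the correlation of their deviations was 0.028.

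All 18 probes of the 8 genes are named. Of each list, the 3 largest rises and falls are named, as are the ligands and receptors, except that some genes are not reported here; further genes were named after their values were seen. Members, lists and motifs were chosen with earlier results of these data known. A probe below background on all arrays of a group gives a bound, the mean of the bright group over the mean floor of the dim one. The floor is the lowest log2 signal of a probe well above background on that array (3.63 to 4.38). The ratio is no bound where some arrays of the bright group were also below background, as for the dimmer Cd80 probe. Probe coordinates are those of the files (mm9), and no annotation of that build was used here, so exon and UTR positions are not given.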

Additional observations from a re-analysis of the deposited data

Results flagged for a closer look

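Values that stood far from the others of their set were looked for in 42 sets of 5 (each tested probe, over the untreated arrays, the IMQ groups and the responses), and 3 were found, where chance gives about 1 in 20. The WT response of Itgax was 0.73, against 0.22 to 0.36 in the other genotypes. On the dimmer Ccr7 probe the Card14-/- level after IMQ was 3.81, against 4.64 to 4.94 in the other genotypes, and both of its arrays were below background. On the dimmer Cd80 probe the untreated Tlr9-/- level was 2.14, against 3.08 to 3.41, with all 5 below background.

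One difference between genotypes passed its own test: the response of Ccr7 on the brighter probe was -1.25 in Card14-/- relative to WT, on the log2 scale. In that comparison 11.4% of all probes were called in either direction. The IMQ arrays of Card14-/- and WT lay on different slides, so slide and genotype cannot be told apart. The untreated WT array, at 6.32, was the lowest of its set and the Card14-/- arrays, at 7.17 and 7.05, were the lowest after IMQ.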

How the results depend on the processing

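Cd83, Cd207 and the brightest Cd86 probe passed the average-response test in all 13 alternatives (1.72 to 1.95, 1.12 to 1.25 and 1.08 to 1.30), and the Cd86 probe at base 1928 in all 12 (0.79 to 1.25). Ccr7 lost its call in 6 of 13 and Itgax in 7 of 13. The dimmer Cd80 probe ranged from 0.24 with normexp to 1.84 with scaling to the 75th percentile. Flt3 on its brighter probe was at 0.02, and with a genotype left out it ran from -0.043 to 0.076, below 0 only without Tlr9-/-.

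In the average response, 9 member probes were called, 5 with 1 probe per gene name and 5 in the 3 genotypes on slide 1 alone, and 5 to 8 with a genotype left out; over all probes the count was 8964, 18466 with 12 separate arrays and slide as a block, and 880 to 7607 with a genotype left out. Rises were 43.9% of those calls and 54.6% with scaling to the 75th percentile. Called member probes by genotype, with normexp, were 3 in WT, 2 in Tlr7-/-, 3 in Tlr9-/- and 3 in Tlr7-/-Tlr9-/-; in the deposited values 2 in Tlr7-/- and 3 in Tlr9-/-; with 1 probe per gene name 3 in WT, 3 in Tlr7-/-, 3 in Tlr9-/- and 2 in Card14-/-; and 3 in Tlr9-/- with probes above background on all 12 arrays. Leaving out a repeat array gave 0 in Tlr7-/-, Tlr7-/-Tlr9-/- and Card14-/-, 0 to 4 in Tlr9-/- and 5 to 6 in WT, with 1 residual degree of freedom left. For Card14-/- against WT the count was 1, then 2 with the 75th percentile (both Ccr7 probes), 0 with normexp, 0 in the deposited values, and 0 without any 1 repeat array; over all probes it was 4221 and 0 without a repeat array. The causes were not tested, except that these fits have fewer samples or fewer probes. With a replicate block on the repeat numbers, 0 member probes were called between the IMQ arrays of Card14-/- and Tlr7-/-Tlr9-/-, as without it, and 54 of all probes in place of 392. Signal over background limits the dimmer Ccr7 and Cd80 probes, and the number of pools limits the rest.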
